A study of Mus musculus with 16 samples.

Results

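The genes described here encode the ligands of the transforming growth factor beta (TGF-β) pathway, the proteins that hold them in latent form, their receptors and 1 secreted matrix protein named for its induction by the ligand. They were chosen by symbol, as the probes whose annotated gene is Tgfb1, Tgfb2, Tgfb3, Ltbp1, Ltbp2, Ltbp3, Ltbp4, Tgfbr1, Tgfbr2 or Tgfbi, which makes 10 genes of the 16593 with a symbol on the array. They were read by 23 of 25697 probes, of which 14 probes of 9 genes were bright enough to be tested. Total RNA of mouse embryonic fibroblasts (MEFs), primary cells grown from embryos, was measured on 16 Illumina bead arrays. The wild-type (Wt) cells carry Hmgb1, which encodes an abundant chromatin protein, and the knockout (KO) cells are Hmgb1-/-. Each genotype was measured in cycling cells (3 arrays), in cells labelled G1 (3 arrays) and in cells synchronised in S (2 arrays), called phases here. That gives 6 groups and 8 Wt and KO pairs, each pair from embryos of 1 heterozygous mother mated with a heterozygous male. The pairs came from 3 mothers and were used at up to passage 3, and no drug treatment, age or method of synchronisation is given in the sources used here. Which mothers gave the S pairs is not given either, and no repeat hybridisations of 1 sample are described. With 3 mothers, the 8 pairs are not 8 independent cases, and counts such as 8 of 8 pairs include a mother more than once.

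TGF-β is made as a precursor whose propeptide stays wrapped around the ligand. In most cells the propeptide is bound by a latent TGF-β binding protein, which anchors the complex in the extracellular matrix until integrins, proteases or other factors free the ligand. The free ligand binds the type II receptor, which recruits and phosphorylates the type I receptor, and this activates Smad2 and Smad3, which enter the nucleus with Smad4. In fibroblasts the pathway is known for inducing collagens, contractile proteins and protease inhibitors, and in many epithelial cells it slows proliferation.

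Ltbp4 and Tgfbi are the members with a probe past the threshold between genotypes, and the sequences upstream of their annotated starts are shown so that a reader can place those results. They are the 250 bases before the start, from RefSeq on GRCm38.p6, each printed 5′ to 3′ in the direction of transcription. Ltbp4 has 3 starts in the table, of which the third overlaps the second and is not printed. The first lies at chr7:27337613-27337862 and the second at chr7:27333649-27333898, both on the minus strand, and the Tgfbi stretch lies at chr13:56609336-56609585 on the plus strand. Capitals mark the GC box GGGCGG on either strand.

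Ltbp4 start 1: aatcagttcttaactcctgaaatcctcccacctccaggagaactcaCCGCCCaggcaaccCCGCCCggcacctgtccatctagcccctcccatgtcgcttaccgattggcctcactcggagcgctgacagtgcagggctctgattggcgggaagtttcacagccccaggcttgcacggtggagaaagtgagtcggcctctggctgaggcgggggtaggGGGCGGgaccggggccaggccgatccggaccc

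Ltbp4 start 2: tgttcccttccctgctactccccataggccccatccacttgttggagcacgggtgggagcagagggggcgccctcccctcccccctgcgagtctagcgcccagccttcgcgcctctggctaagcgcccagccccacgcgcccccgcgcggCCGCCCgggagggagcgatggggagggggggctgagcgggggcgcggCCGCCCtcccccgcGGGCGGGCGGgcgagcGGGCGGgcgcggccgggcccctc

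Tgfbi start 1: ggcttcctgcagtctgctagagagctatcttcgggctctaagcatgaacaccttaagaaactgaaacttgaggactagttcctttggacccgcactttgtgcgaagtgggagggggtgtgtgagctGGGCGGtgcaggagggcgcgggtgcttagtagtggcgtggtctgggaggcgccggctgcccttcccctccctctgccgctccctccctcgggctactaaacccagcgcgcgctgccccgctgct

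The Ltbp4 stretches hold 3 and 5 GC boxes and the Tgfbi stretch holds 1, some of them overlapping. Of all 32851 promoter windows of this length, 32.7% hold at least 1. GC content was 64.4% and 79.2% before the Ltbp4 starts and 62.4% before Tgfbi, against a median of 52.4% over all windows. None of the printed stretches holds the Smad palindrome GTCTAGAC (in 0.167% of windows), the Smad-binding repeat CAGACA (17.1%), the AP-1 element TGANTCA (6.75%), the TATA box TATAAA (12.4%) or the E-box CACGTG (6.02%), each searched on both strands. These are matches of letters in a window and say nothing of binding. The table holds 9 of the 10 members, and the array results do not say which Ltbp4 start was used.

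Probe intensities are given as log2 values after background correction with an added offset of 16 and quantile normalisation. Levels are compared only within a probe. A probe was detected on an array where its detection p-value was under 0.01, and was tested where it was detected on every array of at least 1 group. Differences come from limma with their standard errors (SE), and a call means a Benjamini-Hochberg adjusted p under 0.05 over all 12078 probes tested. Mean intensity per array ran from 393.8 to 776.1, and 9970 to 12354 probes per array were detected. The number of arrays limits the precision. There were 2 slides of 8 arrays. All cycling arrays and G1 pair 3 were on slide 1, with G1 pairs 1 and 2 and all S arrays on slide 2. In 3 groups 1 array stood clearly apart from the other 2. Wt_cycling replicate 3 correlated with its group at no more than 0.951, where the others reached 0.984, and KO_G1 replicate 1 at no more than 0.883, where the others reached 0.991. Wt_G1 replicate 1 correlated at no more than 0.949, where the others reached 0.99. KO_cycling replicate 3 lay nearer, at 0.977 against 0.991. The first 2 were picked with earlier results of these data known and are called the 2 deviating arrays, and results that rest on them are given with and without them. A fit without all 3 was added after the data were seen. The S arrays of a genotype lay much closer to each other, at 0.994 and 0.995. The Hmgb1 probe was detected on 1 of 16 arrays, in the Wt_G1 group, so it could not check the genotype labels. Of 10 fibroblast markers, 8 were detected on every array and none was undetected throughout. Of 6 endothelial markers, Emcn was detected on 13 arrays, Tek on 2, and Pecam1, Cdh5, Kdr and Tie1 on none. Of 4 skeletal muscle markers, Des was detected on all 16 arrays and the regulators Myod1 and Myog on none. Of 6 epithelial markers, Krt8 was detected on 8 arrays, Cdh1 on 6, Krt14 on 5, Krt18 on 3 and Krt5 on none, and Epcam had no probe. Leukocyte markers were present. Adgre1, Lyz2 and Aif1 were detected on all 16 arrays and Ptprc on 8, and Itgam on 1, these being the 5 of 7 listed genes with a probe.

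**Figure D1:**
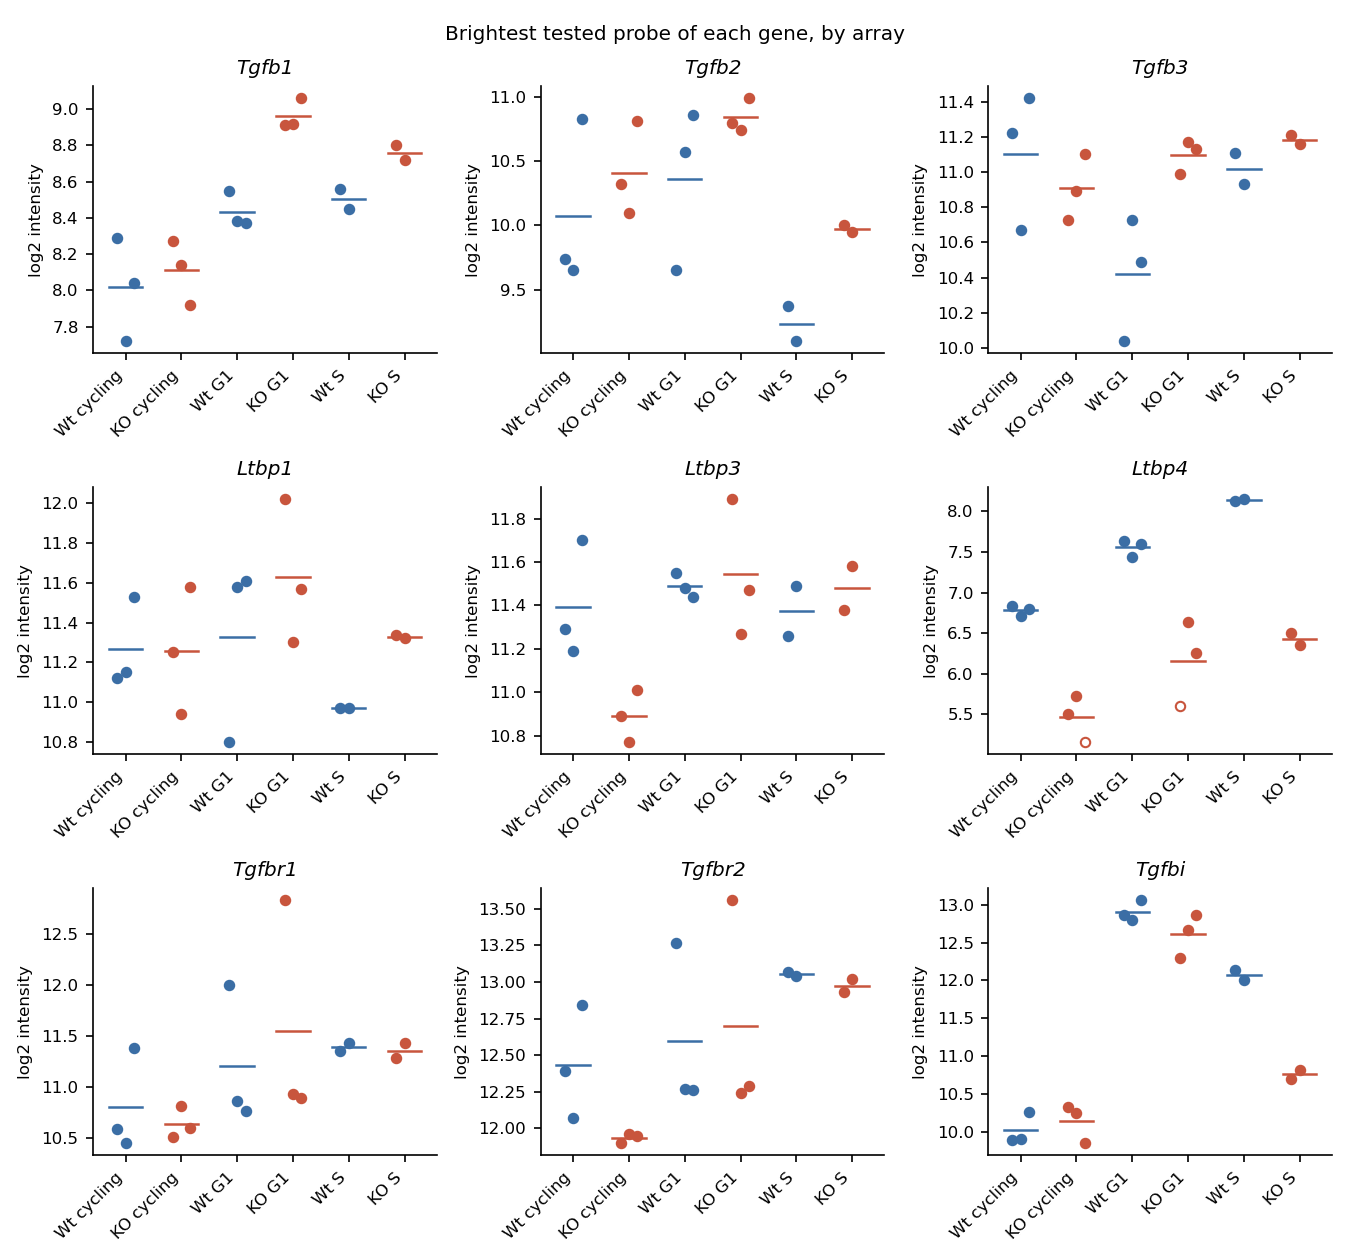
Log2 intensity (vertical axes) of the brightest tested probe of each of 9 genes on every array of the 6 groups, Wt in blue and KO in red. Points are arrays, filled where the probe was detected, and bars are group means. Ltbp4 was lower in KO in every phase, and Tgfbi was high in G1 and lower in KO_S (10.70 and 10.82) than in Wt_S (12.14 and 12.00).

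Across the 3 phases together, 2 of the 14 tested probes differed between genotypes, both of them Ltbp4 probes, and both were lower in KO. No member probe was higher. Over all probes 2.06% were called in this comparison, 0.911% higher and 1.15% lower in KO. The median difference (KO minus Wt) of the 14 probes was 0.04, against 0.00 for all tested probes. The genotype difference of Ltbp4 was present in each phase, and Tgfbi differed in S. For the ligands, the other binding proteins and the receptors no genotype difference passed the threshold.

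Ltbp4 encodes a latent TGF-β binding protein that is also needed for elastic fibre assembly. Its brighter tested probe (ILMN_2829262) read 6.84, 6.71 and 6.80 on the Wt_cycling arrays and 5.51, 5.73 and 5.16 on the KO_cycling arrays, in replicate order. In G1 it read 7.63, 7.44 and 7.60 in Wt and 5.60, 6.64 and 6.25 in KO. In S it read 8.13 and 8.15 in Wt and 6.5 and 6.36 in KO. Every Wt array lay above every KO array, and the probe was detected on every Wt array and on 6 of 8 KO arrays, failing on KO_cycling replicate 3 and KO_G1 replicate 1. The mean difference over the phases was -1.48 ± 0.14 (SE), or 2.78-fold lower in KO (limma adjusted p = 9.12e-05), with KO lower in 8 of 8 pairs. The difference was -1.34 on slide 1 alone and -1.57 on slide 2 alone, with limma adjusted p of 0.164 and 0.121 in these smaller fits. Leaving out any 1 of the 16 arrays gave -1.38 to -1.56 and kept the call. Without the arrays numbered 2, which leaves 1 S array per genotype, it was -1.60 with a limma adjusted p of 0.264. No probe of the whole array was called in that fit and 336 had an unadjusted p under 0.05. Without the 2 deviating arrays the difference was -1.38 (limma adjusted p = 3.7e-05), and without all 3 arrays that stood apart -1.36 (4.36e-05).

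Within single phases the same probe differed by -1.32 ± 0.23 in cycling cells (limma adjusted p = 0.0309), by -1.40 ± 0.23 in G1 (0.028) and by -1.71 ± 0.29 in S (0.0228). It was the only member probe called in cycling cells, where 0.315% of all probes were called (0.124% higher, 0.19% lower). It was also the only one called in G1, where 0.29% were (0.0745% higher, 0.215% lower), and 1 of 2 called in S, where 0.232% were (0.0414% higher, 0.19% lower). KO was lower in 3 of 3 cycling pairs, 3 of 3 G1 pairs and 2 of 2 S pairs. A block for each pair left these differences as they were and put their limma adjusted p at 0.0559, 0.0545 and 0.0607. Leaving out any 1 array of the phase raised it above 0.05 in 6 of 6 cases in cycling cells, 4 of 6 in G1 and 4 of 4 in S. In those cases the difference ran from -1.16 to -1.78. The genotype effect changed by -0.08 ± 0.33 from cycling to G1 and by -0.31 ± 0.37 from G1 to S, with limma adjusted p of 0.929 and 1 and 95% intervals of -0.79 to 0.63 and -1.11 to 0.48.

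The dimmer tested Ltbp4 probe (ILMN_2590034) read 6.43, 5.81 and 5.51 in Wt_cycling, 6.76, 7.16 and 6.11 in Wt_G1, and 7.29 and 7.30 in Wt_S. It read 5.06, 5.0 and 4.76 in KO_cycling, 5.98, 5.41 and 5.18 in KO_G1, and 6.02 and 5.96 in KO_S. KO was lower in 8 of 8 pairs and the genotypes did not overlap within any phase, although they did across phases. The probe was detected on 7 of 8 Wt and 3 of 8 KO arrays, so the fold is a limit, at least 1.88-fold lower in KO, with a measured difference of -1.14 ± 0.18 (limma adjusted p = 0.0041). On slide 1 alone the difference was -0.95 and on slide 2 alone -1.28, and it was -1.06 to -1.24, still called, without any 1 array. Without the arrays numbered 1 it was -1.16 with a limma adjusted p of 0.109, and without those numbered 2 it was -1.05 with 1. The probe was detected on 0 of 3 KO_cycling and 1 of 3 KO_G1 arrays, so in those phases only limits can be given, at least 1.36-fold and at least 1.99-fold lower in KO. In S, where all 4 arrays detected it, it was 2.46-fold lower. None of the single phases passed the threshold (limma adjusted p of 0.233, 0.176 and 0.376). A further Ltbp4 probe was detected on no array.

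**Figure D2:**
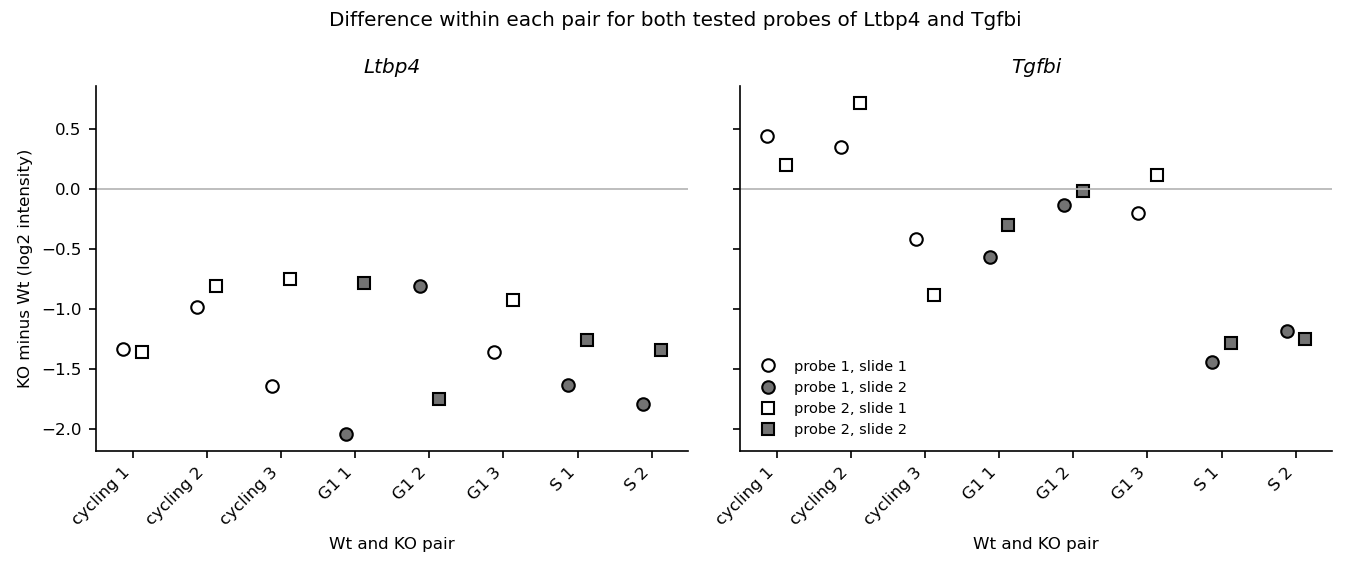
KO minus Wt (log2 intensity, vertical axis) in each of the 8 Wt and KO pairs (horizontal axis) for both tested probes of Ltbp4 and of Tgfbi. White symbols are pairs on slide 1 and grey ones pairs on slide 2. All 16 Ltbp4 points lie below 0, while the Tgfbi points lie on both sides of 0 outside the S pairs.

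The marker lists were set beside the Ltbp4 difference. The fibroblast markers summed to 15.40 to 15.61 in KO_cycling against 15.78 to 15.94 in Wt_cycling (log2 of the summed intensity), to 15.62 to 16.11 against 15.64 to 16.17 in G1, and to 15.97 to 15.98 against 15.99 to 16.03 in S. Of the 10, Pdgfra, a receptor found on mesenchymal cells, was lower in KO over the phases (-1.32 ± 0.31, limma adjusted p = 0.0455). No other passed the threshold, with Lum at -1.02 ± 0.25 (limma adjusted p = 0.0567). Pdgfrb (0.21 ± 0.16) and Vim (0.02 ± 0.13) lay the other way. The epithelial markers were dim, with sums of 6.06 to 6.72 in KO_cycling against 6.32 to 6.43 in Wt_cycling, of 6.67 to 7.18 against 7.07 to 8 in G1, and of 6.28 to 6.37 against 6.98 to 7.04 in S. Of the 2 tested epithelial markers Krt14, a keratin of basal epithelial cells, was lower in KO. It was detected on 5 of 8 Wt and 0 of 8 KO arrays, which gives at least 1.47-fold over the phases (limma adjusted p = 0.00214) and at least 2.25-fold in G1 (0.0163). The endothelial markers summed to 5.83 to 7.27 on the KO and 6.03 to 7.33 on the Wt arrays, with Emcn at 0.67 ± 0.31 (limma adjusted p = 0.385). The leukocyte markers summed to 11.66 to 13.17 in KO_cycling and 12.45 to 12.60 in Wt_cycling. They summed to 12.16 to 14.05 in KO against 12 to 14.77 in Wt in G1, and to 14.11 to 14.34 against 14.34 to 14.47 in S. No tested leukocyte marker was called in any comparison. The mean of the 4 tested proliferation markers was 8.76 to 9.03 in KO_cycling against 9.11 to 9.46 in Wt_cycling. It was 7.73 to 7.96 against 8.2 to 8.43 in G1 and 8.66 to 8.7 against 9.06 to 9.11 in S. KO thus lay below Wt in each phase, although none of these 4 was called between genotypes. No tested muscle, cartilage or neural marker was called between genotypes either. The part of all these markers in the Ltbp4 difference was not tested. In bulk RNA, fewer cells of a type and less RNA per cell cannot be told apart.

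Tgfbi encodes a secreted matrix protein that binds integrins and collagens and was named for its induction by TGF-β. In S it was lower in KO. Its brighter probe (ILMN_2834379) read 12.14 and 12.00 in Wt_S and 10.70 and 10.82 in KO_S. The difference was -1.31 ± 0.24, 2.48-fold lower in KO (limma adjusted p = 0.0443), and KO was lower in 2 of 2 pairs. The other probe (ILMN_2727663) read 8.86 and 8.75 in Wt_S against 7.58 and 7.50 in KO_S, a difference of -1.27 ± 0.31 that did not pass the threshold (limma adjusted p = 0.214). The call rests on 2 arrays per group. With a block for each pair the limma adjusted p was 0.0972, after median scaling 0.696, and without any 1 of the 4 S arrays 0.385 to 0.672. Without the 2 deviating arrays, neither of which is an S array, it was 0.00246 and that of the other probe 0.0111. In that fit 486 of 12078 probes of the array were called in S, against 28 as analysed. The S arrays all lay on slide 2. The leukocyte markers summed to 14.34 to 14.47 in Wt_S and 14.11 to 14.34 in KO_S, and their part in the S difference was not tested.

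In the other phases the genotypes overlapped. In cycling cells the brighter Tgfbi probe read 9.89, 9.90 and 10.26 in Wt and 10.33, 10.25 and 9.85 in KO, a difference of 0.12 ± 0.20 (95% interval -0.30 to 0.55). In G1 it read 12.86, 12.80 and 13.06 in Wt and 12.30, 12.67 and 12.86 in KO, a difference of -0.30 ± 0.20 (-0.73 to 0.13). The KO effect in S minus that in G1 was -1.01 ± 0.31 for the brighter and -1.20 ± 0.40 for the dimmer probe, with unadjusted p of 0.00628 and 0.00911 and limma adjusted p of 1 for both. No probe of the array was called in that comparison, where 184 had an unadjusted p under 0.05. Without the 2 deviating arrays, the brighter probe gave -1.17 with a limma adjusted p of 0.0483, and 105 probes of the array were called. Over the phases together the brighter probe was at -0.49 ± 0.12 (limma adjusted p = 0.0569), which became -0.40 with 0.0198 without the deviating arrays. Over the whole array 1184 probes were then called, against 249 as analysed.

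**Figure D3:**
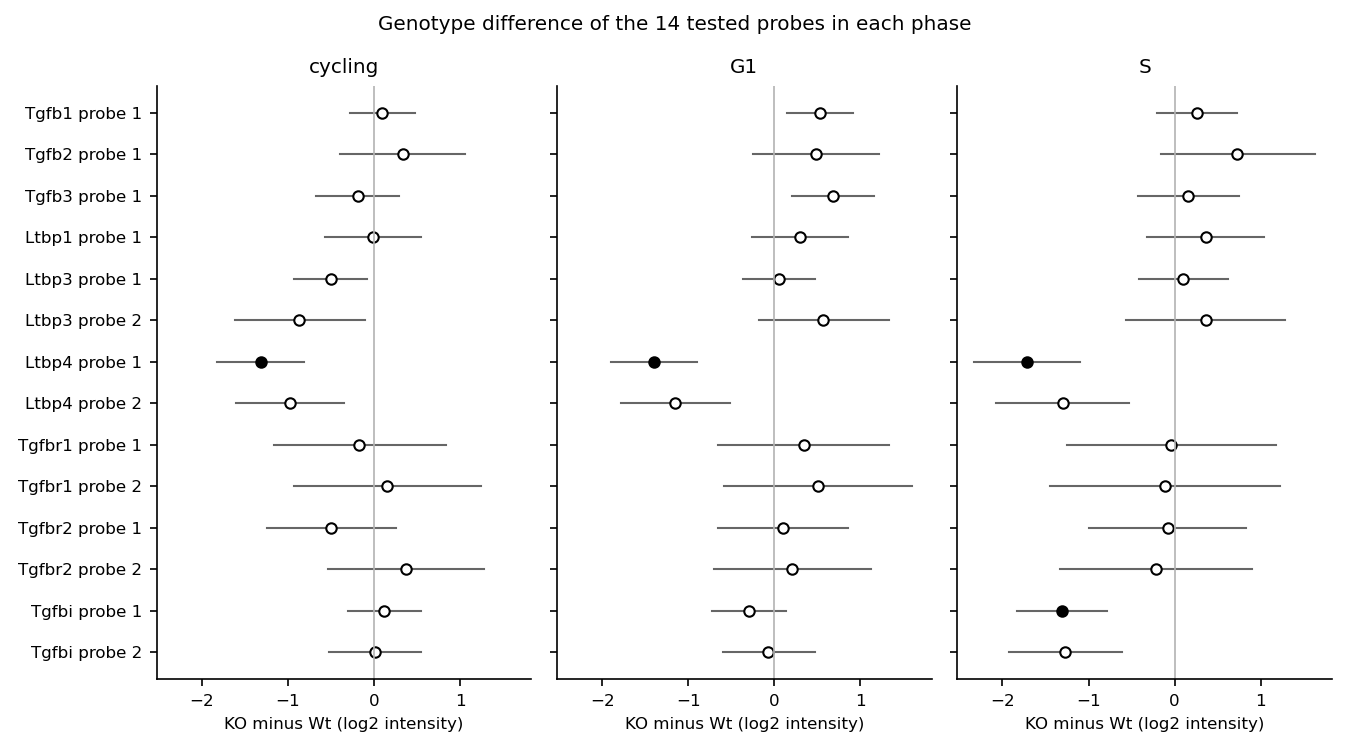
KO minus Wt (log2 intensity, horizontal axes) of the 14 tested probes in cycling, G1 and S cells, with limma's 95% interval as lines. Filled points passed the threshold. Those are Ltbp4 probe 1 in each phase (-1.32, -1.40 and -1.71) and Tgfbi probe 1 in S (-1.31).

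The 3 ligands each had 1 probe. Tgfb1, the isoform found in most tissues, read 8.55, 8.38 and 8.37 in Wt_G1 and 8.91, 8.92 and 9.06 in KO_G1. The G1 groups did not overlap, and the difference of 0.53 ± 0.18 did not pass the threshold (unadjusted p = 0.00917, limma adjusted p = 0.318). Of all 12078 probes, 1098 had an unadjusted p under 0.05 in the G1 comparison. The share of all probes whose groups do not overlap was not counted for any comparison. In cycling cells Tgfb1 read 8.29, 7.72 and 8.04 in Wt and 8.27, 8.14 and 7.92 in KO, and in S 8.56 and 8.45 against 8.80 and 8.72. The differences were 0.09 ± 0.18 and 0.26 ± 0.21. In S, with 2 arrays per group, the genotypes did not overlap for any of the 3 ligands. Over the phases KO was higher in 6 of 8 pairs, by 0.29 ± 0.11 (limma adjusted p = 0.233).

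Tgfb2, which is needed in the development of heart, skeleton and other organs, read 9.74, 9.65 and 10.83 in Wt_cycling and 10.32, 10.10 and 10.81 in KO_cycling. In G1 it read 9.65, 10.57 and 10.86 in Wt and 10.80, 10.74 and 10.99 in KO, and in S 9.37 and 9.10 against 10 and 9.95. KO was higher in 7 of 8 pairs, and the genotypes overlapped in cycling cells and in G1 but not in S. The mean difference of 0.52 ± 0.21 had a limma adjusted p of 0.29, and without the 2 deviating arrays it was 0.65 with 0.0465. That fit kept the pair partners of the arrays it dropped, KO_cycling replicate 3 (10.81) and Wt_G1 replicate 1 (9.65). In it 1184 of 12078 probes of the array were called, against 249 as analysed. Tgfb3, known for its part in palate closure and lung development, read 10.04, 10.73 and 10.49 in Wt_G1 and 10.99, 11.17 and 11.13 in KO_G1. These groups did not overlap either, and the difference of 0.68 ± 0.22 had an unadjusted p of 0.00887 and a limma adjusted p of 0.314. In cycling cells Tgfb3 read 11.22, 10.67 and 11.42 in Wt and 10.73, 10.89 and 11.10 in KO, where the difference was -0.19 ± 0.22. In S it read 11.11 and 10.93 in Wt and 11.21 and 11.16 in KO, a difference of 0.16 ± 0.27. The change of the Tgfb3 genotype effect from cycling to G1, 0.87 ± 0.32, had a limma adjusted p of 0.509. In that comparison 1 probe of the array was called (0.00828%) and none was a member. An unadjusted p under 0.05 was found for 2 of the 14 member probes and for 1140 of all 12078 probes.

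Among the other binding proteins, Ltbp1 had 6 probes, of which 1 (ILMN_1221564) was tested, 2 others were detected on 2 arrays each and 3 on none. It read 11.12, 11.15 and 11.53 in Wt_cycling, 10.80, 11.58 and 11.61 in Wt_G1, and 10.97 on both Wt_S arrays. It read 11.25, 10.94 and 11.58 in KO_cycling, 12.02, 11.30 and 11.57 in KO_G1, and 11.34 and 11.32 in KO_S. The genotypes overlapped in cycling cells and G1, and the mean difference was 0.22 ± 0.16 (95% interval -0.13 to 0.56). Ltbp2, whose protein is the family member that does not bind latent TGF-β, had 1 probe that was not tested. That probe was detected on 3 of 16 arrays, KO_cycling replicate 1 at 5.49, Wt_S replicate 1 at 5.46 and Wt_cycling replicate 3 at 5.64.

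Ltbp3, which binds all 3 latent ligands and is needed for skeletal growth, had 2 tested probes. The brighter (ILMN_2776619) read 11.29, 11.19 and 11.70 in Wt_cycling and 10.89, 10.77 and 11.01 in KO_cycling. The dimmer (ILMN_2608746) read 7.12, 6.33 and 7.70 in Wt_cycling and 5.68, 6.27 and 6.61 in KO_cycling. KO was lower in 3 of 3 cycling pairs with both probes, and the groups did not overlap with the brighter. The differences of -0.50 ± 0.20 and -0.87 ± 0.35 did not pass the threshold (limma adjusted p of 0.389 and 0.409). In G1 the probes differed by 0.05 ± 0.20 and 0.57 ± 0.35 and in S by 0.10 ± 0.24 and 0.36 ± 0.43. The G1 arrays of the brighter probe read 11.55, 11.48 and 11.44 in Wt against 11.89, 11.27 and 11.47 in KO, and the S arrays 11.26 and 11.49 against 11.38 and 11.58. Those groups overlapped.

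The type I receptor gene Tgfbr1 had 4 probes, of which 2 were tested, and the type II receptor gene Tgfbr2 had 2, both tested. The brighter Tgfbr1 probe (ILMN_2602711) read 10.59, 10.45 and 11.38 in Wt_cycling, 12.00, 10.86 and 10.76 in Wt_G1, and 11.35 and 11.43 in Wt_S. It read 10.51, 10.81 and 10.60 in KO_cycling, 12.83, 10.93 and 10.89 in KO_G1, and 11.28 and 11.43 in KO_S. The G1 arrays of pair 1 were the highest of their genotype, and the genotypes overlapped in every phase. The mean difference was 0.05 ± 0.28 (95% interval -0.56 to 0.66). The brighter Tgfbr2 probe (ILMN_2760979) read 12.39, 12.07 and 12.84 in Wt_cycling and 11.90, 11.96 and 11.95 in KO_cycling, which did not overlap and differed by -0.50 ± 0.35 (limma adjusted p = 0.655). In G1 it read 13.27, 12.27 and 12.26 in Wt against 13.56, 12.24 and 12.29 in KO, and in S 13.07 and 13.04 against 12.93 and 13.02. The S groups did not overlap. Pair 1 was again the highest of the G1 pairs. The mean Tgfbr2 difference was -0.16 ± 0.21 (95% interval -0.62 to 0.30), and the dimmer probes gave 0.19 ± 0.31 for Tgfbr1 and 0.12 ± 0.26 for Tgfbr2. The dimmer Tgfbr1 probe (ILMN_2980532) reached 8.19 and 9.34 on the Wt and KO arrays of G1 pair 1, against 6.75 to 7.39 on the other G1 arrays.

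The leukocyte markers were set beside the receptor levels. The mean of the 4 tested leukocyte markers, all of them expressed in macrophages, was 10.81 on Wt_G1 replicate 1 and 10.08 on KO_G1 replicate 1, and 9.66 to 10.41 on the S arrays. It was 7.87 to 8.13 on the other G1 arrays and 8.04 to 9.30 on the cycling arrays. The arrays of G1 pair 1, highest for Tgfbr1 and Tgfbr2, were thus high for these markers too. Both are among the 3 arrays that stood apart. Among the cycling arrays the marker mean was highest on KO_cycling replicates 1 and 2, at 9.30 and 9.29, where Tgfbr1 read 10.51 and 10.81. Wt_cycling replicate 3, with a marker mean of 8.22, was the highest cycling array for Tgfbr1 (11.38) and Tgfbr2 (12.84). The part of the markers in the receptor levels was not tested. In replicate order, Tgfbi read 12.86, 12.80 and 13.06 in Wt_G1, where the marker mean was 10.81, 7.87 and 8.06. In KO_G1 it read 12.30, 12.67 and 12.86, where the marker mean was 10.08, 8.13 and 8.06. The part of the markers in the Tgfbi levels was not tested.

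**Figure D4:**
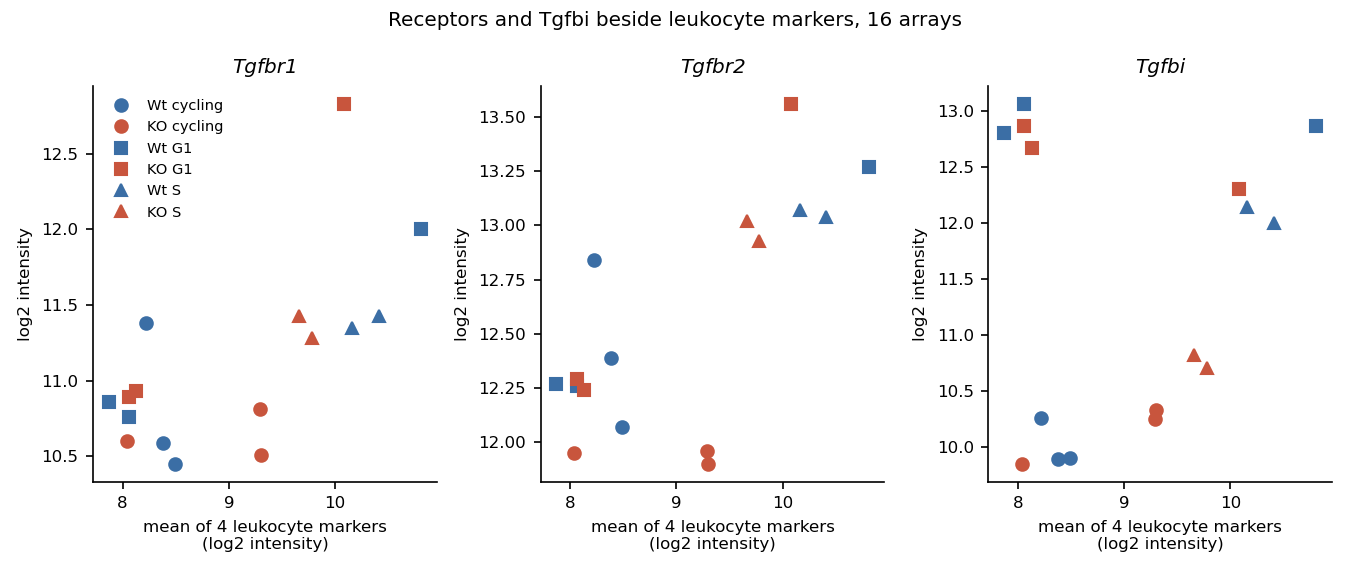
Log2 intensity of the brightest Tgfbr1, Tgfbr2 and Tgfbi probe (vertical axes) against the mean of 4 leukocyte markers (log2 intensity, horizontal axes) on 16 arrays. Circles are cycling, squares G1 and triangles S arrays, Wt in blue and KO in red. The G1 pair numbered 1, whose arrays stood apart from their groups, lies to the right, at 10.81 and 10.08, and is highest for both receptors. Tgfbi is high on all G1 arrays.

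Between G1 and cycling cells, as the mean over genotypes, 6 of the 14 probes were higher in G1 and none was lower. They were both Tgfbi probes, both Ltbp4 probes, the Tgfb1 probe and the dimmer Ltbp3 probe. Over all probes 19.8% were called, 9.72% higher and 10.1% lower. The median of the 14 was 0.64, against -0.05 for all probes. Marker genes of several cell types differed between these cells too. Of 10 fibroblast markers 4 were higher in G1, the matrix genes Lum (5.77 ± 0.29), Dpt (2.23 ± 0.51) and Col3a1 (0.80 ± 0.18) and the receptor gene Pdgfra (2.19 ± 0.36), and Thy1 was lower (-0.62 ± 0.17). Lum was detected on 3 of 6 cycling arrays and was at least 48.3-fold higher in G1 (limma adjusted p = 3.53e-08). Both tested epithelial markers, Krt14 (at least 1.43-fold) and Krt8 (at least 1.16-fold), and the cartilage regulator Sox9 (1.36 ± 0.20) were higher in G1. Of 3 tested smooth muscle markers, Myh11 (-1.15 ± 0.21) and Tagln (-1.04 ± 0.21) were lower, and no tested endothelial, leukocyte, skeletal muscle or neural marker was called. The part of these markers in the members' differences was not tested. Of the arrays on slide 1, the G1 ones are the pair numbered 3 alone, so the fit within that slide sets 2 G1 arrays against 6 cycling arrays.

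Tgfbi had the largest difference of the members. All 6 G1 arrays of the brighter probe lay between 12.30 and 13.06 and all 6 cycling arrays between 9.85 and 10.33. The difference was 2.68 ± 0.14, 6.39-fold higher in G1 (limma adjusted p = 4.39e-08), and 2.88 within slide 1 (0.0014). The dimmer probe read 6.67, 6.05 and 7.17 in Wt_cycling and 6.87, 6.77 and 6.29 in KO_cycling, against 9.90, 9.89 and 9.62 in Wt_G1 and 9.60, 9.88 and 9.74 in KO_G1. It was 3.14 ± 0.18 higher in G1, or 8.79-fold (limma adjusted p = 8.27e-08), and 3.05 within slide 1 (0.0036).

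Tgfb1 was higher in G1 by 0.63 ± 0.12, or 1.55-fold (limma adjusted p = 0.00287), and its G1 and cycling arrays did not overlap. Within slide 1 the difference was 0.65 with a limma adjusted p of 0.111, with slide as a block 0.65 with 0.0533, and after median scaling 0.50 with 0.136. The brighter Ltbp4 probe was higher in G1 by 0.73 ± 0.17 (limma adjusted p = 0.00694), at 0.80 with 0.0561 within slide 1. The dimmer was higher by 0.67 ± 0.21 (limma adjusted p = 0.0359), or at least 1.30-fold since it was detected on 2 of 6 cycling arrays. Its difference was 0.21 within slide 1 and 0.45 without the deviating arrays, and the limma adjusted p with a block for each pair was 0.0584. The dimmer Ltbp3 probe was higher in G1 by 0.75 ± 0.25 (limma adjusted p = 0.0478), at 0.0837 with a block for each pair and 0.60 with 0.391 within slide 1. Leaving out 1 array ended the call of the dimmer Ltbp4 probe in 8 of 12 cases and that of the Ltbp3 probe in 9 of 12. The brighter Ltbp3 probe differed by 0.37 ± 0.14 (0.0761). For Tgfb2 the difference was 0.36 ± 0.24, for Tgfb3 -0.24 ± 0.16, for Ltbp1 0.22 ± 0.18, and for the brighter Tgfbr1 and Tgfbr2 probes 0.65 ± 0.33 and 0.46 ± 0.25, none of them past the threshold. Without the 3 arrays that stood apart, Tgfb2 (0.74, limma adjusted p = 0.00279), the brighter Ltbp3 probe (0.35, 0.0123) and the brighter Tgfbr1 probe (0.28, 0.0262) passed it, and the dimmer Ltbp4 probe did not (0.43, 0.115). In that fit 4954 of 12078 probes of the array were called.

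Between S and G1, 3 of the 14 probes were lower in S and none was higher, where 11.4% of all probes were called, 5.72% higher and 5.66% lower. They were both Tgfbi probes and the Tgfb2 probe. The median of the 14 was -0.08, against 0.04 for all probes. The Tgfbi probes were lower in S by -1.34 ± 0.16, 2.54-fold (limma adjusted p = 0.000352), and -1.60 ± 0.20, 3.03-fold (0.00051). Within slide 2, which held the S arrays and 4 of the 6 G1 arrays, they gave -1.24 with a limma adjusted p of 0.0542 and -1.65 with 0.0309. All 4 S arrays lay below all 6 G1 arrays with both probes. The brighter probe read 12.14 and 12.00 in Wt_S, nearer to G1 than the 10.70 and 10.82 of KO_S, which were nearer to the cycling arrays. Tgfb2 was lower in S by -1.0 ± 0.27, 1.99-fold (limma adjusted p = 0.0309). With a block for each pair its limma adjusted p was 0.0519, and within slide 2 the difference was -0.83 with 0.145. Leaving out any 1 of 7 of the 10 arrays raised the p above 0.05 as well, to at most 0.125. The S and G1 arrays of Tgfb2 overlapped through Wt_G1 replicate 1, at 9.65. Ltbp4 differed by 0.43 ± 0.18 and 0.54 ± 0.23 (limma adjusted p of 0.159 and 0.153), Tgfb1 by -0.07 ± 0.14 and Tgfb3 by 0.35 ± 0.18. Without the 3 arrays that stood apart 7 member probes were called, among 5545 of the whole array. The brighter Tgfbr1 and Tgfbr2 probes were then higher in S, by 0.51 (limma adjusted p = 0.00122) and 0.75 (0.000104), as was the dimmer Ltbp4 probe (0.68, 0.0245), and Ltbp1 was lower (-0.37, 0.0382). Of 4 tested proliferation markers 3 were lower in G1 than in cycling cells and 1 was higher in S than in G1. Mcm2, a subunit of the replicative helicase, was lower in G1 than in cycling cells by -1.42 ± 0.15 (limma adjusted p = 3.89e-05) and higher in S than in G1 by 0.90 ± 0.17 (0.0059). Cdk1 and Top2a, which act in mitosis, were lower in G1 (-1.16 ± 0.29 and -1.0 ± 0.21). In S against G1 they were at 0.93 ± 0.32 and 0.68 ± 0.24, not past the threshold. Pcna, the sliding clamp of DNA replication, passed in neither comparison (-0.28 ± 0.20 and 0.69 ± 0.23).

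The rest of the pathway was read through 4 lists of genes, with the brightest tested probe of each gene. Between genotypes over the phases 2.06% of all probes were called, 0.911% higher and 1.15% lower in KO. Of 25 genes that act in latency and activation, 16 were tested, and 1 was higher and none lower in KO over the phases. That was Bmp1, a protease known to cleave the latent binding protein LTBP1, at 0.43 ± 0.10 (limma adjusted p = 0.0402) and higher in 8 of 8 pairs. With a block for each pair its limma adjusted p was 0.0792, with slide as a block 0.0704 and after median scaling 0.238, and the call ended without any 1 of 12 of the 16 arrays. Its other tested probes were at 0.29 ± 0.11 and 0.30 ± 0.13, not past the threshold. The list's median difference was 0.17. Of 10 co-receptors and other receptors, 7 were tested, and Eng was lower in KO, by -1.17 ± 0.22 (limma adjusted p = 0.0111) and in 8 of 8 pairs. Eng encodes endoglin, a co-receptor that binds TGF-β with the type II receptor and is abundant on endothelial cells. It was -1.14 on slide 1 alone and -1.16 on slide 2 alone, not called there, and without Wt_S replicate 1 its limma adjusted p was 0.0656. Of the 6 endothelial markers Emcn was the 1 tested, at 0.67 ± 0.31 (limma adjusted p = 0.385), and their part in the Eng difference was not tested.

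Of 20 Smads and regulators, 15 were tested and none was called between genotypes. Of 34 genes known as TGF-β targets in fibroblasts, 29 were tested, with a median of -0.07 over the phases. Of these, 2 were higher in KO and none was lower, where 0.911% of all probes were higher and 1.15% lower. Postn, which encodes the matrix protein periostin, was higher by 1.28 ± 0.29 (limma adjusted p = 0.0402), and Vegfa, the vascular growth factor, by 0.72 ± 0.13 (0.0091), each in 8 of 8 pairs. On slides 1 and 2 alone they were at 1.22 and 1.55 (Postn) and 0.55 and 0.92 (Vegfa), not called there. The Postn probe was detected on 4 of 8 Wt arrays, so its fold is a limit, at least 2.22-fold, and its limma adjusted p was 0.0702 with slide as a block. Leaving out any 1 array of 11 ended the Postn call, and leaving out Wt_S replicate 1 or KO_S replicate 2 ended that of Vegfa (0.0557 and 0.0527). The brightest listed targets, Lox, Col5a1, Tpm1 and Ccn2, were not called between genotypes. No gene of the 4 lists was called between genotypes in a single phase, nor in the comparisons of the genotype effect between phases.

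Between G1 and cycling cells, 9 of the 29 tested targets were higher in G1 and 3 were lower, with a median of 0.24, where 9.72% of all probes were higher and 10.1% lower. Timp3, an inhibitor of matrix proteases, rose by 1.92 ± 0.15 (limma adjusted p = 1.54e-06), Il11, a cytokine, by 1.94 ± 0.47, Has2, a hyaluronan synthase, by 1.27 ± 0.23 and Id2, an inhibitor of basic helix-loop-helix factors, by 1.25 ± 0.25. Itga5, Pdgfb, Vegfa, Col3a1 and Snai1 rose by 1.11, 1.22, 0.95, 0.80 and 0.73. The targets that fell were the oxidase gene Nox4 (-1.08 ± 0.22), the contractile gene Tagln (-1.04 ± 0.21) and the cell cycle inhibitor gene Cdkn2b (-0.94 ± 0.15). With slide as a block, 5 targets were higher and 1 was lower, and 765 of 12078 probes were called. Of the 16 tested latency and activation genes, 4 were higher in G1 and 1 was lower. Dcn, whose product decorin binds TGF-β, rose by 2.10 ± 0.24 (limma adjusted p = 7.04e-05), the matrix proteases Mmp2 and Mmp14 rose by 0.95 ± 0.23 and 0.47 ± 0.12, and Itgb5, an integrin subunit, fell by 0.49 ± 0.15. Fbn2, a fibrillin gene, went undetected in cycling cells and was higher in G1 by at least 1.28-fold. With slide as a block 2 genes of this list were higher and none was lower. Among the other lists Acvr1, a type I receptor gene, was higher in G1 (0.84 ± 0.17) and Acvr2b lower (-0.54 ± 0.14), and the feedback inhibitor gene Pmepa1 and Smad5 were higher (0.63 ± 0.16 and 0.47 ± 0.15). With slide as a block none of these 4 was called. Leaving out 1 array ended the call of Itgb5 in 10 of 12 cases, of Smad5 in 8 and of Mmp14 in 1, without KO_cycling replicate 2.

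Between S and G1, 4 of the 16 tested latency and activation genes were lower in S and none was higher, where 5.66% of all probes were lower and 5.72% higher. They were Emilin1 (-0.89 ± 0.16), whose product in mice limits the processing of the TGF-β precursor, Fbn2, Mmp14 (-0.65 ± 0.14) and Bmp1 (-0.61 ± 0.12), all with limma adjusted p of 0.01 or less. Fbn2 was detected on 1 of 4 S arrays and was at least 1.49-fold lower. Among the 29 tested targets 2 were higher in S, Tagln (0.97 ± 0.24) and the cell cycle inhibitor gene Cdkn1a (0.66 ± 0.14), and 2 were lower, Vegfa (-0.91 ± 0.17) and Has2 (-0.87 ± 0.26). Leaving out 1 array ended the call of Has2 in 8 of 10 cases, of Tagln in 4 and of Bmp1, Fbn2, Mmp14 and Cdkn1a in 2 each. Within slide 2 alone none of these 8 differences passed the threshold, and 26 probes of the whole array did.

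The members varied among themselves in part together. Over the 16 arrays the 2 tested probes of 1 gene correlated (Pearson's r) at 0.986 for Tgfbi, 0.917 for Tgfbr1, 0.864 for Ltbp4, 0.81 for Ltbp3 and 0.747 for Tgfbr2. The brighter Tgfbr1 and Tgfbr2 probes correlated at 0.913 and Tgfb2 and Ltbp1 at 0.809, while the 3 ligands correlated with each other at 0.16 to 0.188. Of all genes tested, the patterns most like Ltbp4 were those of Aqp1 (0.964), Smpdl3b (0.945) and Gpx3 (0.942), and those most like Tgfbi were Hr (0.976), Fibcd1 (0.962) and Cxcl15 (0.956). For Tgfbr1 they were Man1a (0.95), BC005537 (0.947) and Reck (0.946), and for Tgfbr2 Zfp263 (0.957), Arsb (0.952) and Sdcbp (0.946). The points share genotype, phase and slide, so these values describe the arrays and carry no test.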

How the data were processed

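Per the submitters' processing notes, the arrays were processed with BeadStudio 3.0. The intensities used were deposited without normalization, with the detection p-value of each probe, per the file headers. A table of intensities that the authors normalized, by a method not given in the sources used here, served as an alternative. The probe annotation gave 1 symbol for 23978 of 25697 probes.

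Intensities were background-corrected by normexp (background inferred through the detection p-values), given an offset of 16 and quantile normalized (neqc in limma 3.58.1, R 4.3.3, statmod 1.5.0). The filter kept a probe if all arrays of any 1 of the 6 groups had a detection p under 0.01, which left 12078 probes of 8428 genes. A limma model with a mean per group used all 16 arrays, and the S groups thereby share the spread of the other groups. Tests were two-sided and adjusted by Benjamini-Hochberg over all tested probes. For the mean of the 3 phases, replicate number within genotype was a random block (consensus correlation -0.0106). With replicate number within phase as the random block, the consensus correlation was 0.211. If no more than 50% of the arrays in the dimmer group detected a probe, its fold is a bound computed with each array's lowest detected value, or the probe's own where higher. The fit was tested on simulated data.

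The pairing of Wt and KO replicates comes from the series description. Deviations from the group mean correlated between arrays of the same number at 0.196, 0.189 and 0.388 (cycling), 0.423, 0.403 and 0.357 (G1) and 0.0644 (S). Between arrays of different number they correlated at -0.307 to 0.246 (cycling), -0.396 to 0.276 (G1) and -0.0644 (S). In S, 2 arrays per group force these values to be equal in size. The fit without the pair block was the main one. Slides were read from the array labels. Alternatives were median scaling, the authors' table, no filter, an offset of 50, slide or pair as a block, each slide alone, 2 groups alone, and leaving out arrays. The same alternatives for the pathway lists were added after the data were seen, as was leaving out Wt_G1 replicate 1 with the 2 deviating arrays. All tested probes of the members were named, pathway genes where called (and the brightest others), and for each member the 3 most correlated genes. The members and lists were chosen with earlier results of these data known. Upstream sequences were read from a RefSeq promoter table.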

Additional observations from a re-analysis of the deposited data

Results flagged for a closer look

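For 3 member probes the genotype difference had opposite signs in 2 phases. Every pair of the second phase lay on the opposite side of 0 from every pair of the first. With 2 or 3 pairs per phase, random signs can give this pattern too. The share of all tested probes that show it was not counted. Whether 3 member probes are more than random signs would give was therefore not tested. The Ltbp3 probes among them read the same gene and are not independent cases. The brighter Ltbp3 probe was lower in KO in 3 of 3 cycling pairs (mean -0.50) and higher in 2 of 2 S pairs (0.10), a change of 0.61. The dimmer Ltbp3 probe likewise went from -0.87 in cycling cells to 0.36 in S, a change of 1.22. The change between cycling and S cells was not tested, and neither Ltbp3 difference passed the threshold within a phase. The brighter Tgfbr1 probe was higher in KO in 3 of 3 G1 pairs (mean 0.34), while its 2 S pairs were at -0.08 and, rounded, 0 (mean -0.04). The second S pair was lower only beyond the printed digits, so its sign carries little weight. The change of -0.38 had a limma adjusted p of 1. Groups of 2 or 3 arrays are too small to look for single outlying values.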

How the results depend on the processing

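Counts are of the 14 member probes. Over the phases together, 2 probes were called as analysed, 4 without the 2 deviating arrays (Ltbp4, Tgfb2 and the brighter Tgfbi probe), 0 on slide 1 or slide 2 alone, and 0 to 3 when single arrays or all arrays of 1 number were left out, the 0 without number 2. The 1 call in cycling cells became 0 after median scaling, with the authors' table, with slide or pair as a block (replicate block), with the 2 groups fitted alone and on leaving out any 1 array (0 to 0), and 2 without the deviating arrays. The 1 call in G1 became 0 after median scaling, with the pair block, on slide 2 alone and with the 2 groups alone, 2 without the deviating arrays, and 0 to 1 without single arrays. The 2 calls in S became 0 after median scaling and with the pair block, 4 without the deviating arrays, 5 with the 2 groups alone and 0 to 0 without single arrays. The 6 calls of G1 against cycling became 3 after median scaling, 2 with slide as a block and 2 on slide 1 alone. The 3 calls of S against G1 became 5 without the deviating arrays and 1 on slide 2 alone. The genotype effect between S and G1 had 1 call without the deviating arrays. Leaving out Wt_G1 replicate 1 as well gave 4 calls over the phases, 2 in cycling cells, 1 in G1, 4 in S, 8 for G1 against cycling, 7 for S against G1 and 1 for the genotype effect between S and G1. The cause of these changes was not tested, except that the fits of 1 slide or 2 groups use fewer arrays. No called difference changed sign. The S arrays lay close together, and with the 2 S groups fitted alone 1995 probes of the array were called instead of 28. Calls over the whole array of 12078 tested probes rose without the deviating arrays too. They were 272 in cycling cells (38 as analysed), 126 in G1 (35) and 486 in S (28). For S against G1 they were 4281 (1375), and for the genotype effect between S and G1 105 (0). Leaving out Wt_G1 replicate 1 as well gave 803, 234 and 1054 in the phases and 190 for that effect. Over the phases 1184 were called without the deviating arrays, 1768 without those and Wt_G1 replicate 1, 39 without number 1 and 249 as analysed. Median scaling moved the median of all probes from -0.01 to 0.12 in cycling cells, from 0.00 to -0.13 in G1 and from 0.04 to 0.21 for S against G1. The dimmer Ltbp4 and Tgfbr2 probes lay near background on several arrays, so their differences are less certain. The brighter Ltbp4 probe also lay near it in KO_cycling (5.51, 5.73 and 5.16) and on KO_G1 replicate 1 (5.60). Its fold was 2.63 over the phases with KO values below an array's lowest detected value raised to that value. It was then 2.31 in cycling cells and 2.42 in G1. Detection and intensity, not read depth, limit these arrays.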
